A study of Mus musculus with 33 samples.

Results

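The genes described here are 35 immediate early and dissociation response genes, read in single cells of the mouse hippocampal neurogenic niche. They were chosen by name, as the rows that carry these 35 symbols, and all 35 were found among the 18853 gene rows of the count tables. Immediate early genes are transcribed within minutes of a stimulus from promoters that are already poised, with no need for new protein synthesis. Kinase cascades reach their promoters through factors such as SRF, CREB and NF-kB, and many of the products are themselves transcription factors or inhibitors that shut the response down. In brain the family is best known as a mark of neuronal activity, and in tissue taken apart with enzymes it is also known as a mark of the handling of cells. The set holds AP-1 factors, EGR factors, KLF factors, NR4A receptors, MAP kinase phosphatases, feedback genes of the NF-kB and cytokine pathways, the small immediate early response proteins, genes of growth arrest and survival, and a last group of matrix, GTPase and G protein signalling genes.

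The study profiled the dentate gyrus stem cell niche of wild-type C57BL/6 mice after neurons had been depleted, which was done by sorting live cells negative for GluR1 and Cd24 antibodies into 384-well plates. Of the 33 libraries, 31 come from 5 experiments on this niche. Another 1 holds the same sort from old animals, past 12 months of age, and the last 1 holds GFP-positive cells sorted from NestinGFP mice, whose strain is also given as C57BL/6. In the NestinGFP mouse the Nestin gene's regulatory sequence drives the reporter, so that this sort takes cells by that reporter, while the other libraries take what the antibody depletion leaves. Neither the number of mice pooled nor the age and sex of the niche mice was used here, and the 2 single libraries have no replicate. For experiment 2 the labels say that the deposited reads are a resequencing of the original libraries. Every library went through tissue dissociation, sorting and freezing, so the state of these genes before dissociation was not measured, and a response to handling and a level already present in the tissue cannot be told apart.

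Wells with at least 1000 transcripts were kept: 1285 of 3840 niche wells, 138 of the 384 wells of the old library and 315 of the 384 wells of the Nestin-GFP library. The median depth of the kept wells ran from 1943 transcripts in experiment 5 to 12392 in experiment 4. The libraries of plates D and E in experiment 3 stood apart, with 4 to 10 kept wells each. Clusters were built without the 35 genes and without the other response genes listed further on, and were named from fixed marker genes, so each name means cells like that type. Of the niche wells 1248 fell into 7 lineages: microglia-like, lymphoid-like, astrocyte-lineage-like (astrocyte-like and stem cell-like clusters), oligodendrocyte precursor-like, mature oligodendrocyte-like, neurogenic (proliferating progenitor-like and neuroblast-like clusters) and vessel-like cells. Markers of mature neurons summed to at most 751 CPM in a niche lineage, in neurogenic cells, against 7847 to 11272 CPM for the neuroblast markers there. An experiment counts as 1 replicate, and a level is given in CPM, the counts of a gene per 1000000 counts, over the summed wells of a lineage, for lineages with at least 10 wells in that experiment. The assay counts tagged 3' ends, 1 count per molecule, so that levels of different genes are not divided by gene length.

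The promoters of 4 members are shown because they span the range of behaviour described below: Fos and Btg2 were highest in microglia-like cells, and Nr4a1 and Cyr61 were not. Each sequence is the 250 bases before a RefSeq transcript start in GRCm38.p6, the first listed for the gene, 5′ to 3′ on the gene's own strand. For Nr4a1 that start lies inside the gene as annotated (chr15:101253902-101274795), so it is not the outermost start. Capitals mark each match to TGACG, the core of the cyclic AMP response element (CRE), on either strand.
Fos (chr12:85473640-85473889, plus strand): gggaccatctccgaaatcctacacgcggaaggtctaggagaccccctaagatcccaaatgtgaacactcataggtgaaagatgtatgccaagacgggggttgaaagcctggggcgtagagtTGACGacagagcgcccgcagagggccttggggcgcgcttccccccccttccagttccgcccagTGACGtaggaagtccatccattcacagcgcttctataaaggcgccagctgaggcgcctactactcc
Btg2 (chr1:134079156-134079405, minus strand): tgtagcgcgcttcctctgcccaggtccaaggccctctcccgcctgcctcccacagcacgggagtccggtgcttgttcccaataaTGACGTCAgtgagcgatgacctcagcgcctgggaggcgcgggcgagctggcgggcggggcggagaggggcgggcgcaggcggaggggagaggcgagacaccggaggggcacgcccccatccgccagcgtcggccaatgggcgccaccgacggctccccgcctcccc
Nr4a1 (chr15:101266596-101266845, plus strand): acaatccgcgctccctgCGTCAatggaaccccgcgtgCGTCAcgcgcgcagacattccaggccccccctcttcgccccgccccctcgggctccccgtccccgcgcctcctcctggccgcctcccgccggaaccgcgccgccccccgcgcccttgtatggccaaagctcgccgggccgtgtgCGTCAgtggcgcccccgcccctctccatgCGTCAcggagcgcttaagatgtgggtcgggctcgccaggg
Cyr61 (chr3:145649986-145650235, minus strand): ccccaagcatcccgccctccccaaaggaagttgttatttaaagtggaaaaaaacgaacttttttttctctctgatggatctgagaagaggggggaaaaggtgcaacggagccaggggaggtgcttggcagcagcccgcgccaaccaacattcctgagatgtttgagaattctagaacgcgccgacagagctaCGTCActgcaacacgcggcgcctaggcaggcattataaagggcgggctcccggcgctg
The Fos window held 2 matches, Btg2 held 1 full CRE (TGACGTCA, which counts as 2 matches, since each strand holds the core), Nr4a1 held 4 and Cyr61 held 1.

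RefSeq windows were matched for 29 of the 35 members, with Cyr61 found under its current symbol Ccn1. The core TGACG, searched on both strands, occurred in 14 of the 29 (48.3%), against 17.9% of 27025 promoter windows of the same length. The full CRE, TGACGTCA, lay in 3 of them, those of Btg2, Dusp1 and Ppp1r15a (10.3%, against 1.62% of all windows). The letters GCGNGGGCG, a core bound by EGR factors, lay in 11 of the 29 (37.9%, against 4.65%), those of Btg2, Fosb, Fosl2, Gadd45b, Klf2, Klf4, Nr4a1, Nr4a2, Rgs2, Socs3 and Zfp36. An NF-kB site, searched by its consensus, occurred in 5 (17.2%, against 3.75%), among them Nfkbia, which encodes the inhibitor of NF-kB. The AP-1 letters TGANTCA were in 0 of the 29 windows, against 6.87% of all windows. The TATA letters TATAAA were in 5 (17.2%, against 12.97%), and a CArG box, the site of SRF, searched by its consensus, in 1, that of Zfp36 (against 1.40%). All motifs were searched on both strands. These matches describe the letters of the windows and were not measured as binding. The 27025 windows were not matched to the members for their content of G and C, whose part in these shares was not tested.

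Summed over all 35 members, the response genes took 7.03% of transcripts in microglia-like cells of experiment 1, 4.85% in experiment 2, 5.99% in experiment 3 and 7.21% in experiment 5, a mean of 6.27% ± 1.09 (SD, n = 4). Lymphoid-like cells held 1.70%, 1.59% and 1.70% in experiments 1, 2 and 4, the narrowest spread of the 7 lineages. In vessel-like cells the sum was 0.962% in experiment 2, 3.38% in experiment 4 and 0.741% in experiment 5. The microglia-like values lay above those of every other lineage of the niche and did not overlap with them across experiments.

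In the remaining lineages the sum was lower and moved with the experiment. Astrocyte-lineage-like cells held 0.203% in experiment 1, 0.553% in experiment 2, 1.13% in experiment 3, 0.878% in experiment 4 and 0.197% in experiment 5, a 5.76-fold range. Oligodendrocyte precursor-like cells held 1.15%, 0.419%, 1.70% and 0.285% in experiments 1, 2, 3 and 5, a 5.96-fold range. Neurogenic cells held 0.340%, 0.533%, 1.19% and 0.917% in experiments 1 to 4, and mature oligodendrocyte-like cells 0.632% and 0.337% in experiments 1 and 3. Experiment 3 was highest in the astrocyte, precursor and neurogenic lineages. Experiment 1 was not low or high as a whole: its precursors held 5.69 times the share of its astrocyte-lineage-like cells, against 0.757 times in experiment 2, 1.5 times in experiment 3 and 1.45 times in experiment 5. The microglia-like share was 34.7 times the astrocyte-lineage-like share in experiment 1 and 36.7 times in experiment 5, but 8.77 times in experiment 2 and 5.29 times in experiment 3, while the microglia-like share itself ranged 1.49-fold.

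Plates of the same experiment could be compared where each held at least 10 wells of a lineage, and some pairs were close and others not. In experiment 1 precursor-like cells held 11975 CPM of members on plate A and 11092 CPM on plate B, and astrocyte-lineage-like cells 2541 CPM (exact Poisson interval 2102 to 3046) and 1575 CPM (1255 to 1953). In experiment 5 microglia-like cells held 66816 CPM on plate I and 79810 CPM on plate L. In experiment 2, neurogenic cells held 4551 CPM on plate C and 6961 CPM on plate H, with Fos at 459 and 1341 CPM. Precursor-like cells of experiment 5 held 2008 CPM (1495 to 2641) on plate I and 4159 CPM (3229 to 5272) on plate L, with Egr1 at 0 and 428 CPM. The intervals of these pairs do not overlap, except for the precursor-like pair of experiment 1, so plates of 1 experiment could differ beyond counting error. They leave out the spread between wells, and the part of that spread in the plate differences was not tested.

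Cell by cell, the high level of microglia-like cells was a property of most wells. After each well was thinned to 1000 transcripts, the median microglia-like well of the niche held 64 member transcripts (63.5 per 1000 unthinned), and 252 of 292 (86.3%) held 30 or more. The median lymphoid-like well held 14, the vessel-like well 10, the neurogenic and precursor-like wells 5 each, the mature oligodendrocyte-like well 3.5 and the astrocyte-lineage-like well 2. Among the last lineage 38 of 272 wells held 0 member transcripts at this depth, and 5 wells held 30 or more. Vessel-like wells split by experiment: the median was 35 in experiment 4, 8 in experiment 2 and 4.5 in experiment 5. Precursor-like wells were at 10 in experiment 1 and 14.5 in experiment 3, against 4 in experiment 2 and 2 in experiment 5. In the astrocyte lineage 1 well fell under 1000 transcripts after rounding and was left out.

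**Figure D1:**
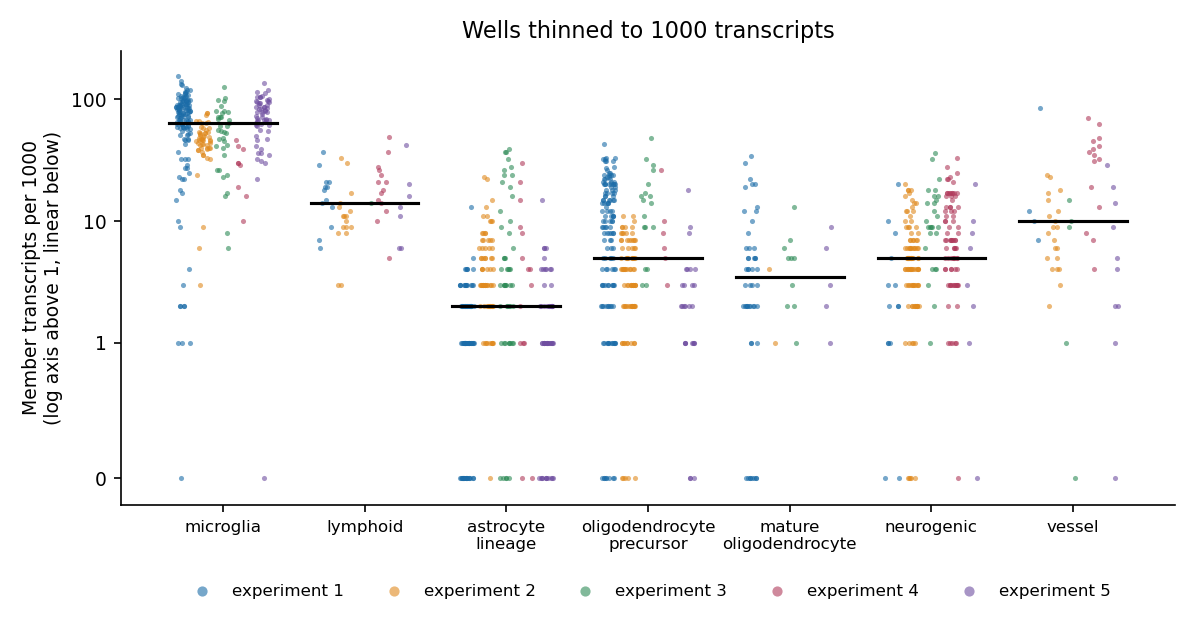
Member transcripts per well after thinning to 1000 transcripts (y axis, log above 1 and linear below) by lineage (x axis), with 1 point per niche well coloured by experiment and a bar at the median. Microglia-like wells centre on 64, astrocyte-lineage-like wells on 2, and most vessel-like wells of experiment 4 lie above those of experiments 2 and 5.

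Gene by gene, 32 of the 35 members passed the filter on low counts, and in microglia-like cells 30 of the 32 were higher and 2 lower than the mean of the other lineages (edgeR quasi-likelihood test, Benjamini-Hochberg adjusted p under 0.05). Log2 fold changes are given below ± their standard error. Over all 5967 genes tested, 22% were higher and 10.7% lower in the same comparison. The median log2 fold change was 3.52 over the members and -0.10 over all genes. The mean of the other lineages is an average of log levels, so that lineages with a gene near 0 pull it down. A member called higher thus need not be highest there. Of the 35 members 26 had their highest niche mean in microglia-like, 5 in lymphoid-like and 4 in vessel-like cells. Among those called higher, Btg1 and Fosl2 were highest in lymphoid-like cells, and Egr2, Ier3 and Gadd45b in vessel-like cells. In 14 of the 32 members the lowest microglia-like experiment lay above the highest experiment of any other lineage, as it did in 3.8% of the 5967 genes. These were Fosb, Jun, Atf3, Klf4, Dusp6, Nfkbiz, Socs3, Zfp36, Ier5, Btg2, Ppp1r15a, Mcl1, Rgs1 and Rgs2. The microglia-like wells of experiments 1 and 5 lay in 1 cluster (134 of 134 and 60 of 60), 47 of 53 wells of experiment 2 lay in another, and those of experiment 3 were split between the first (19) and a cluster of their own (17), led by Il1a.

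Atf3, a stress-induced bZIP factor that pairs with AP-1 proteins, showed the largest difference. It stood at 2792, 1326, 2735 and 3286 CPM in experiments 1, 2, 3 and 5 of microglia-like cells, and at no more than 656 CPM in any other lineage's experiment. The log2 fold change was 5.77 ± 0.36 (SE), adjusted p = 2.5e-73. Next by size came Rgs2, Zfp36 and Rgs1. Rgs2 and Rgs1 speed the switching off of heterotrimeric G proteins. Rgs2 measured 3518, 1864, 1912 and 1635 CPM in experiments 1, 2, 3 and 5 (log2 fold change 5.37 ± 0.4, adjusted p = 2.3e-68). Rgs1 measured 1019, 729, 750.0 and 904 CPM in experiments 1, 2, 3 and 5 (log2 fold change 4.87 ± 0.49, adjusted p = 2.4e-57). Outside microglia-like and lymphoid-like cells Rgs1 did not exceed 24.8 CPM in any niche experiment. Zfp36, the RNA-binding protein tristetraprolin, which brings on decay of cytokine messages, measured 5140.0, 4267, 4441 and 5547 CPM in experiments 1, 2, 3 and 5 (log2 fold change 5.1 ± 0.27, adjusted p = 3.6e-68). All 4 of these genes kept their call under each of the 22 alternatives in which they were followed.

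Every AP-1 factor tested was higher in microglia-like cells, 8 of 8, beside 22% of all genes. Jun was the most abundant member, at 9364, 9276, 7750.5 and 9459.5 CPM in experiments 1, 2, 3 and 5, and made up 14.3% of the summed level. Fos came next with 10878, 4405, 3588 and 7303 CPM in experiments 1, 2, 3 and 5, and its experiments differed 3.03-fold while those of Jun differed 1.22-fold. Fosb averaged 2453 ± 1014 CPM (SD, n = 4), Junb 2749 ± 712 CPM (SD, n = 4) and Jund 1545 ± 748 CPM (SD, n = 4). The small partner Maff (108 ± 120.1 CPM, SD, n = 4) and Fosl2 (28.6 ± 29.9 CPM, SD, n = 4) were called as well, at levels where the spread over experiments was as large as the mean. Of the EGR factors, zinc finger proteins induced through SRF, Egr1 measured 3772, 2429, 4074 and 7616 CPM in experiments 1, 2, 3 and 5 and Egr2 65.8 ± 39.5 CPM (SD, n = 4), both higher.

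The 3 KLF factors tested were higher in microglia-like cells, where Klf6 averaged 3377 ± 1115 CPM (SD, n = 4), Klf4 2958 ± 733 CPM (SD, n = 4) and Klf2 1695 ± 417 CPM (SD, n = 4). Both phosphatases were higher too, beside 22% of all genes. Dusp1, which removes phosphate from p38 and JNK, stood at 2089 ± 1209 CPM (SD, n = 4), and Dusp6, which acts on ERK, at 746 ± 461 CPM (SD, n = 4). Among the feedback genes 4 of 4 were higher: beside Zfp36 these were Nfkbia (1488 ± 853 CPM, SD, n = 4), its nuclear relative Nfkbiz (1268 ± 709 CPM, SD, n = 4) and Socs3, an inhibitor of cytokine receptor signalling (818 ± 281 CPM, SD, n = 4). The immediate early response proteins were higher 3 of 3, with Ier5 (1723 ± 98.3 CPM, SD, n = 4) the steadiest member of all across experiments, and Ier2 (551 ± 244 CPM, SD, n = 4) and Ier3 (267 ± 158 CPM, SD, n = 4) at lower levels.

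In the group of growth arrest, translation and survival genes 5 of 5 were higher, beside 22% of all genes. Btg2, an antiproliferative factor that recruits deadenylases, averaged 2289 ± 731 CPM (SD, n = 4) and its relative Btg1 1061 ± 261 CPM (SD, n = 4). Ppp1r15a (GADD34), which directs the dephosphorylation of eIF2 alpha, averaged 1307 ± 359 CPM (SD, n = 4), and Mcl1, a short-lived survival protein of the BCL2 family, 1212 ± 116 CPM (SD, n = 4). Gadd45b was low at 43.0 ± 49.8 CPM (SD, n = 4), below its means in vessel-like (76.6 CPM) and mature oligodendrocyte-like cells (71.3 CPM). Rhob, a small GTPase induced by stress, was higher at 2352 ± 949 CPM (SD, n = 4).

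**Figure D2:**
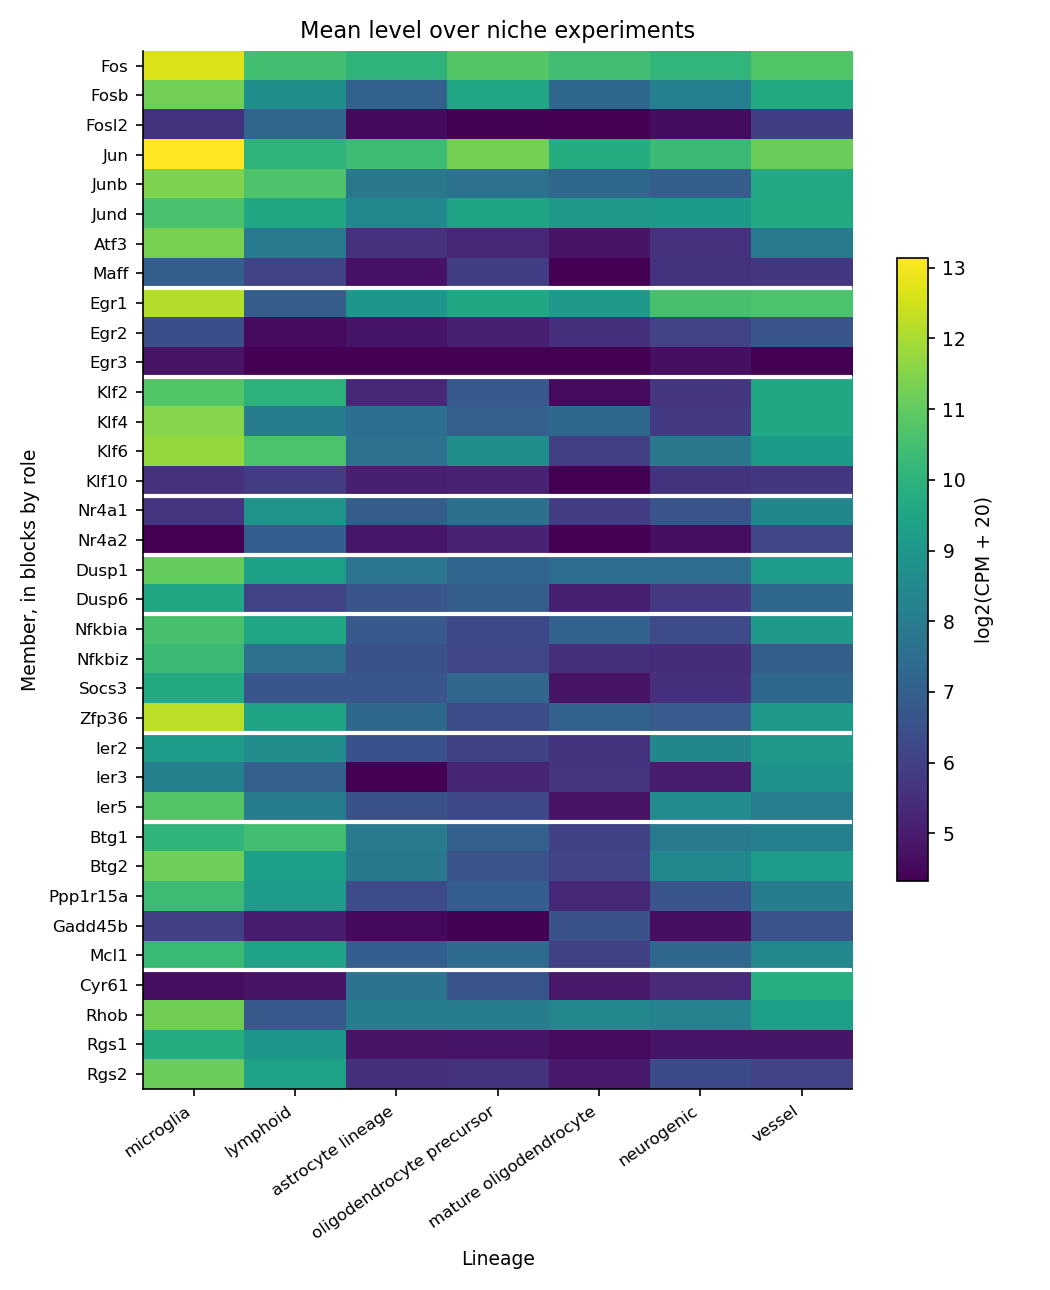
Mean level of each member over niche experiments, as log2(CPM + 20) in colour, by lineage (x axis) and by member in blocks of shared role (y axis). The microglia column is brightest in most rows, with Jun and Fos at the top of the scale, while Cyr61, Nr4a1 and Nr4a2 are dark there.

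Cyr61 and Nr4a1 went the other way. Cyr61, a secreted matrix protein known as a target of SRF and of YAP, was at 0, 6.57, 14.7 and 0 CPM in experiments 1, 2, 3 and 5 of microglia-like cells, against 184 ± 140.4 CPM (SD, n = 5) in astrocyte-lineage-like and 884 ± 1358 CPM (SD, n = 3) in vessel-like cells. A count of 0 allows up to 12.9 CPM in experiment 1 and 52.2 CPM in experiment 5. Nr4a1 (Nur77), an orphan nuclear receptor, was at 34.4, 6.57, 29.4 and 52.2 CPM in experiments 1, 2, 3 and 5, against 447 ± 522 CPM (SD, n = 3) in lymphoid-like cells and 169 ± 42.2 CPM (SD, n = 4) in precursors. The log2 fold change was -1.64 ± 1.2 for Cyr61 (adjusted p = 0.014) and -1.15 ± 0.53 for Nr4a1 (adjusted p = 0.018). The Cyr61 call was lost under 6 of 21 alternatives and the Nr4a1 call under 8 of 21, with the direction kept in each. Its relative Nr4a2 had 0 counts in all 4 microglia-like experiments and in the old library.

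Lymphoid-like cells, the other immune lineage, give a comparison that does not rest on the neural lineages. There 24 of 32 members were higher in microglia-like than in lymphoid-like cells and 1 was lower, against 12% higher and 6.49% lower of all genes. Egr1 differed most, with 99.8 ± 115 CPM (SD, n = 3) in lymphoid-like cells. Its log2 fold change was 6.33 ± 0.6 (adjusted p = 1.2e-22). Rhob (4.86 ± 0.55) and Dusp6 (4.56 ± 0.69) came next. The lower member was Nr4a1 (-2.64 ± 0.63, adjusted p = 1.8e-05). Its lymphoid-like counts were 1, 10 and 92 in experiments 1, 2 and 4, so most came from experiment 4. The lymphoid-like sum of experiment 4 held more microglial than lymphoid markers (7473 against 2646 CPM). Btg1, Rgs1, Ier2, Maff, Gadd45b, Cyr61 and Fosl2 did not pass the test between the 2 immune lineages, and for Btg1 the log2 difference was 0.14 ± 0.35.

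The high microglia-like levels also enter the reference of every other lineage, so each of the other 6 lineages is given against the mean of all other lineages and again with microglia-like cells left out of that mean, a comparison added after the data had been seen. Against all lineages the counts of members higher and lower were 16 and 4 in lymphoid-like cells (all genes 12.4% and 10.2%), 1 and 19 in astrocyte-lineage-like cells (22.7% and 8.36%), 2 and 16 in precursors (19.8% and 6.25%), 1 and 16 in mature oligodendrocyte-like cells (12.8% and 6.44%), 2 and 21 in neurogenic cells (22.2% and 11.2%) and 8 and 0 in vessel-like cells (9.35% and 2.15%). Without microglia-like cells they were 19 and 4 in lymphoid-like cells (14% and 13.1%), 2 and 6 in astrocyte-lineage-like cells (20.8% and 6.94%), 6 and 7 in precursors (17.7% and 4.91%), 1 and 10 in mature oligodendrocyte-like cells (12.1% and 5.7%), 3 and 10 in neurogenic cells (20.8% and 9.67%) and 20 and 0 in vessel-like cells (9.52% and 2.18%). Many of the lower calls in the neural lineages thus rested on the microglia-like cells in the reference, and lymphoid-like and vessel-like cells stood out once those were left out. The medians over members without microglia-like cells were 1.33 in lymphoid-like, 1.30 in vessel-like, -0.35 in precursor-like, -0.61 in astrocyte-lineage-like, -0.73 in neurogenic and -1.01 in mature oligodendrocyte-like cells, and the medians over all genes lay between -0.37 and 0.08.

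**Figure D3:**
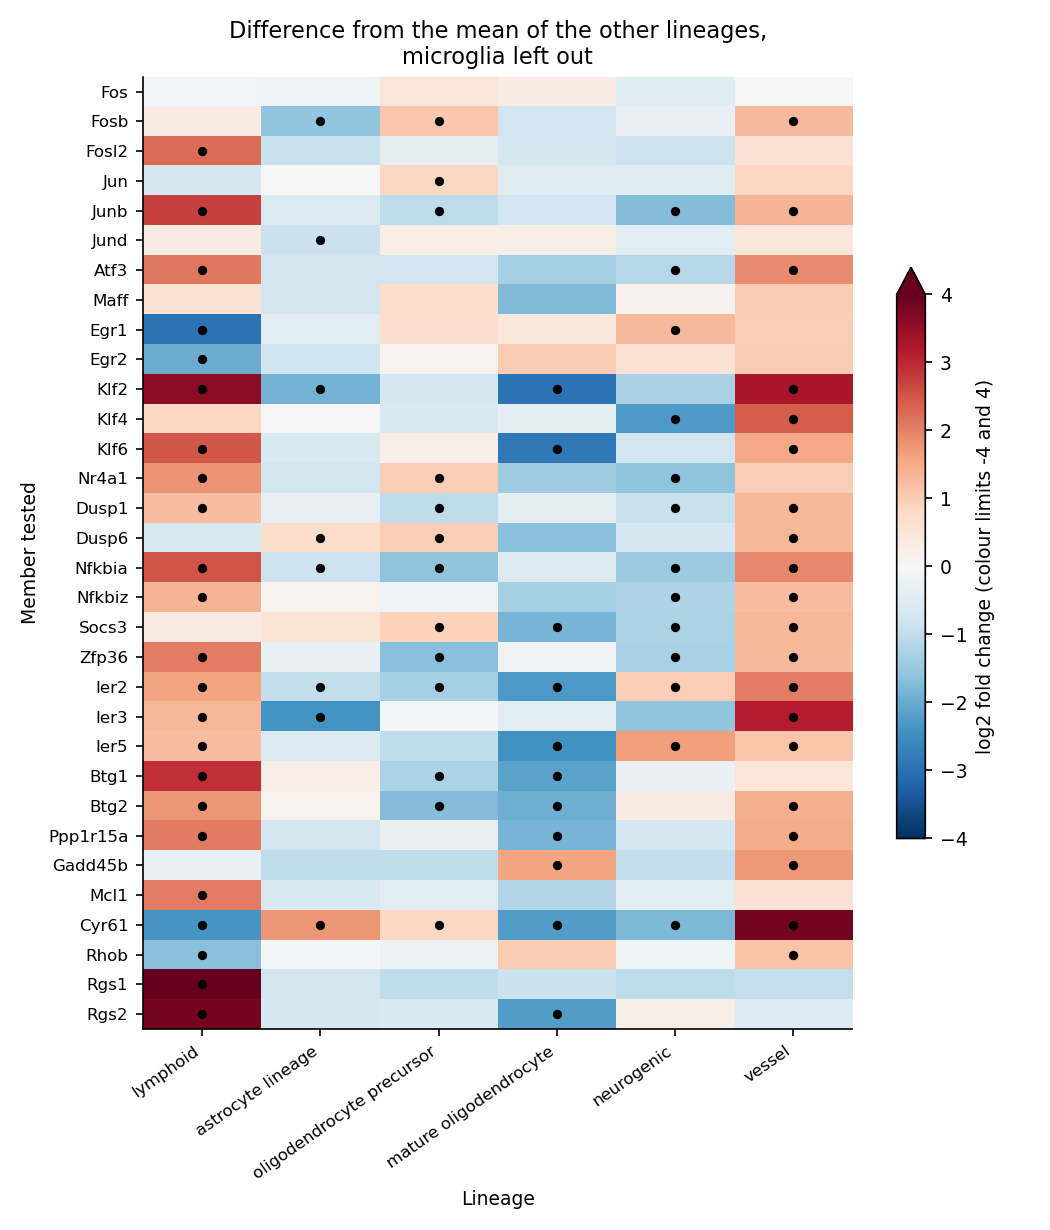
Log2 fold change of each tested member (y axis) in each lineage (x axis) against the mean of the other lineages with microglia-like cells left out, in colour from -4 to 4. A black dot marks an adjusted p under 0.05. Lymphoid-like and vessel-like columns are mostly red, with 19 and 20 members higher, and Cyr61 and Egr1 are blue in the lymphoid-like column.

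The 4 best known inducible factors differed in which lineages held them. Fos, the inducible partner of Jun in AP-1, measured 1791, 1001 and 1402 CPM in experiments 1, 2 and 4 of lymphoid-like cells. In the astrocyte lineage it measured 284, 884, 2156, 1710.4 and 120.3 CPM in experiments 1, 2, 3, 4 and 5. In precursor-like cells it measured 3231, 317, 3122 and 264 CPM in experiments 1, 2, 3 and 5. The precursors of experiments 1 and 3 thus came close to the microglia-like cells of experiment 3, while those of experiments 2 and 5 were about 10 times lower. Mature oligodendrocyte-like cells gave 2184 and 538 CPM in experiments 1 and 3. Neurogenic cells gave 511, 744, 1334 and 1756 CPM in experiments 1, 2, 3 and 4. In vessel-like cells Fos stood at 248, 4557 and 229 CPM in experiments 2, 4 and 5, and experiment 4 was the high one. With microglia-like cells left out of the reference, Fos passed the test in 0 of the 6 lineages.

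Jun varied less across experiments than Fos did in 6 of the 7 lineages, all but the lymphoid-like. It measured 867, 1588 and 667 CPM in experiments 1, 2 and 4 of lymphoid-like cells. The astrocyte lineage held 304, 1972, 2453, 1612 and 361 CPM in experiments 1, 2, 3, 4 and 5. Precursors held 3139.7, 1645, 4695 and 527 CPM in experiments 1, 2, 3 and 5. The last were the highest of the other lineages in the mean, though their experiments overlapped with those of the astrocyte lineage and of vessel-like cells. For mature oligodendrocyte-like cells the values were 1080.1 and 641 CPM in experiments 1 and 3. For neurogenic cells they were 692, 1151, 1973 and 1199 CPM in experiments 1, 2, 3 and 4. For vessel-like cells they were 2555, 2676 and 1604 CPM in experiments 2, 4 and 5. No experiment of these 6 lineages reached the lowest microglia-like value of 7750.5 CPM.

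Junb, an AP-1 factor that can oppose Jun, was high in lymphoid-like cells, with 2022, 1807 and 1063 CPM in experiments 1, 2 and 4. Vessel-like cells held 397, 1728 and 229 CPM in experiments 2, 4 and 5, again with experiment 4 high. The astrocyte lineage held 40.5, 172, 329.8, 409.8 and 107 CPM in experiments 1, 2, 3, 4 and 5. Precursors held 147, 68.9, 433 and 71.9 CPM in experiments 1, 2, 3 and 5. Each lymphoid-like value lay above each value of these neural lineages, and above the 2 that follow. Mature oligodendrocyte-like cells held 149 and 124 CPM in experiments 1 and 3, and neurogenic cells 30.1, 126, 137 and 132 CPM in experiments 1, 2, 3 and 4.

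Egr1 showed another order. Lymphoid-like cells, the lowest of the 7 lineages in the mean, held 0, 73.3 and 226 CPM in experiments 1, 2 and 4. Neurogenic cells held 481, 627, 3137 and 1745 CPM in experiments 1, 2, 3 and 4. Within the latter, experiments 3 and 4 lay above the highest astrocyte-lineage-like and mature oligodendrocyte-like values. The astrocyte lineage held 101, 204, 933, 1078 and 80.2 CPM in experiments 1, 2, 3, 4 and 5. Precursors held 1001, 241, 1595 and 168 CPM in experiments 1, 2, 3 and 5. Mature oligodendrocyte-like cells held 689 and 331 CPM in experiments 1 and 3. The ranges of the 4 neural lineages overlapped across experiments. Within experiments, Egr1 was higher in neurogenic than in astrocyte-lineage-like cells in 4 of 4 and higher in precursors than in astrocyte-lineage-like cells in 4 of 4, while neurogenic cells and precursors took either order. These pairs of lineages were not tested against each other. Vessel-like cells held 223, 4153 and 305 CPM in experiments 2, 4 and 5, and experiment 4 alone made their mean high.

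**Figure D4:**
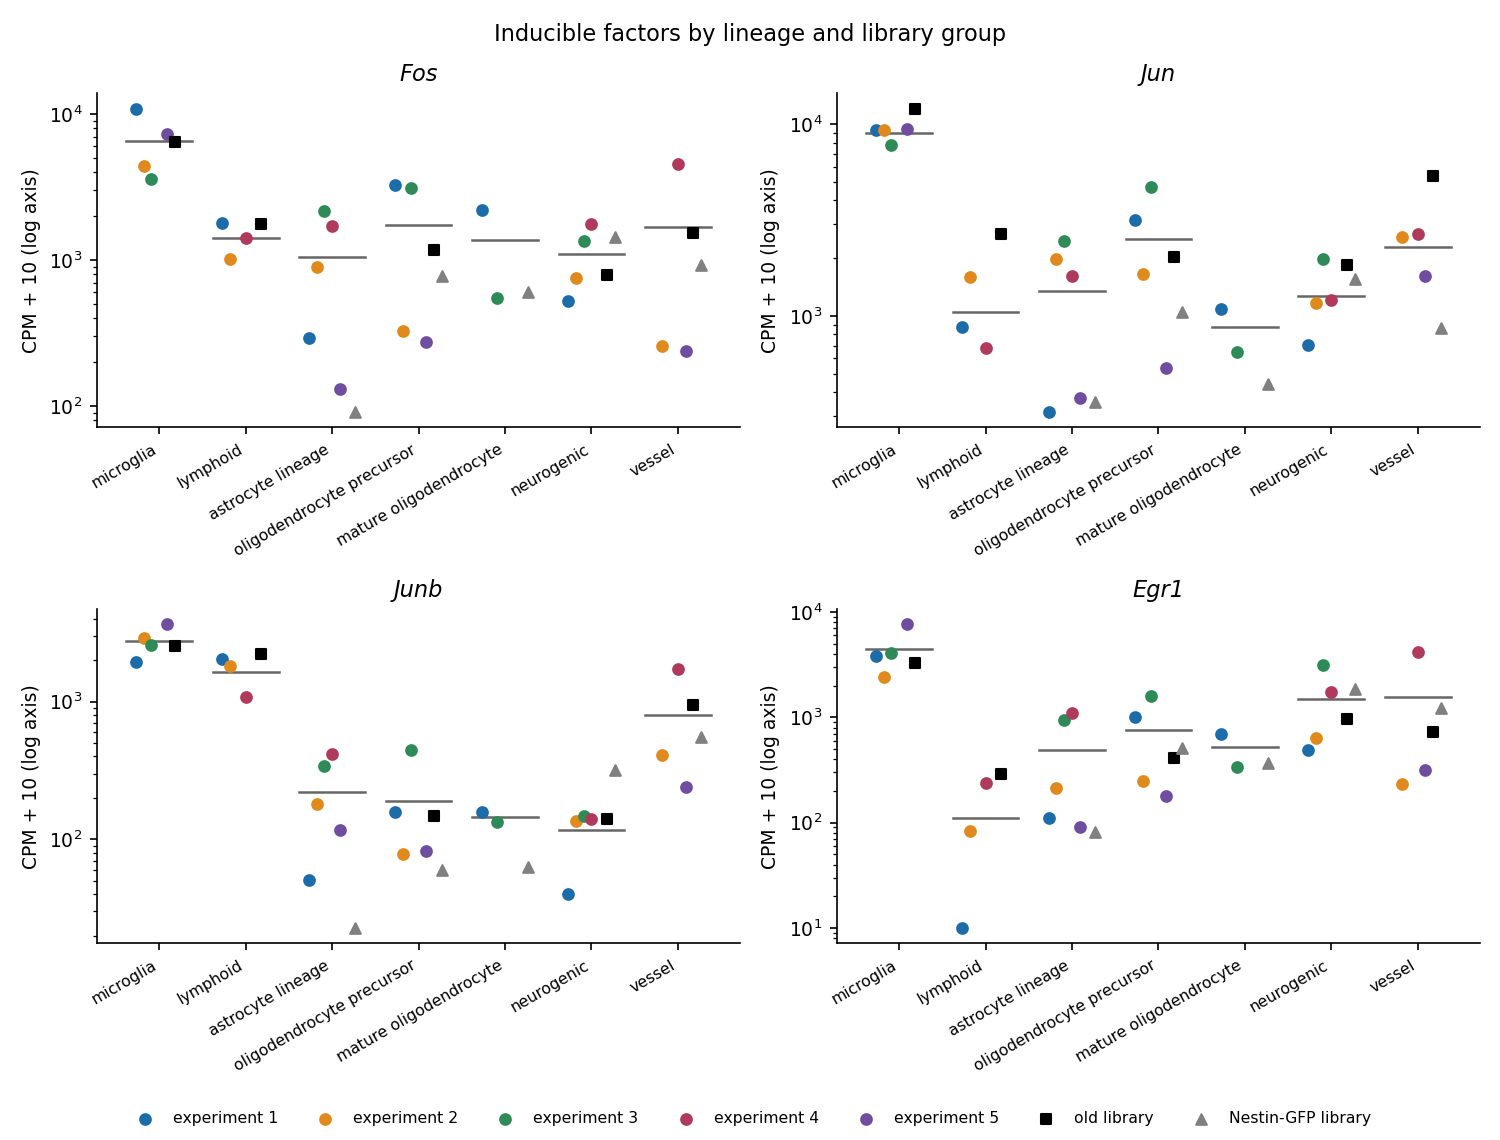
Levels of Fos, Jun, Junb and Egr1 (y axis, CPM + 10, log scale) by lineage (x axis), with circles for niche experiments, a square for the old library, a triangle for the Nestin-GFP library and a line at the niche mean. Fos in precursor-like cells splits into 3231 and 3122 CPM in experiments 1 and 3 and 317 and 264 CPM in experiments 2 and 5, and Egr1 in lymphoid-like cells of experiment 1 is at 0.

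Lymphoid-like cells had 16 members higher against all other lineages. The cluster was led by Ccl5, Gzma and Ms4a4b but also by Lyz2, S100a8 and S100a9, genes of myeloid cells, and the microglial marker set stood at 1386, 2223 and 7473 CPM in experiments 1, 2 and 4, against 38443 to 54661 CPM in microglia-like cells. The lymphoid marker set stood at 7567, 21640.4 and 2646 CPM in the same experiments, so in experiment 4 the microglial markers exceeded the lymphoid ones and the name does not describe that sum well. Macrophage markers were at 0, 0 and 599 CPM. Without experiment 4, 13 members were higher and 2 lower, and Atf3, Ier3 and Jun no longer passed. The share of all genes called in that fit is not given here. The part of myeloid cells in the other member levels was not tested. Rgs1 measured 231, 708 and 531 CPM in experiments 1, 2 and 4 (log2 fold change 3.63 ± 0.52, adjusted p = 2.0e-23) and Rgs2 635, 757 and 565 CPM in experiments 1, 2 and 4 (log2 fold change 2.84 ± 0.43). Klf2, a factor known for keeping lymphocytes quiescent and in circulation, measured 1098, 1563 and 283 CPM in experiments 1, 2 and 4 (log2 fold change 2.82 ± 0.41, adjusted p = 1.9e-18), with experiment 4 low. Btg1, known from lymphocyte quiescence, measured 1617, 1246 and 1300.2 CPM in experiments 1, 2 and 4 (log2 fold change 2.41 ± 0.29, adjusted p = 4.9e-16), close in each experiment. These 4 calls held under each of the 20 alternatives followed. Junb (2.04 ± 0.31), Nfkbia (1.88 ± 0.32), Klf6 (1.76 ± 0.32) and Mcl1 (1.5 ± 0.32) were also higher.

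The members lower in lymphoid-like cells numbered 4: Egr1 (log2 fold change -3.5 ± 0.55, adjusted p = 3.2e-10), Egr2 (-2.24 ± 1.74, adjusted p = 0.015), Rhob (-2.2 ± 0.51) and Jun (-1.2 ± 0.34). The Egr1 call held under each of the 20 alternatives followed, and the Egr2 call was lost under 8 of 19. Egr2 was at 0, 0 and 11.3 CPM in experiments 1, 2 and 4, where a count of 0 allows up to 173 CPM in experiment 1 and 73.3 CPM in experiment 2, so its absence cannot be read from these sums. With microglia-like cells out of the reference Jun no longer passed (adjusted p = 0.14) and Cyr61 did (log2 fold change -2.35 ± 1.24). Against all lineages Junb, Fosl2 and Atf3 were thus higher and Jun lower, while without microglia-like cells 3 AP-1 factors were higher and 0 lower. The counts of Fosl2 and Atf3 came mostly from experiment 4, at 396 and 656 CPM. Without experiment 4 neither Atf3 nor Jun passed.

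In vessel-like cells Cyr61 had the largest difference of the members called, and its niche mean was the highest of the lineages. Cyr61 measured 124, 2453 and 76.4 CPM in experiments 2, 4 and 5, a log2 fold change of 3.99 ± 0.52 (adjusted p = 3.2e-20). Experiment 4 carried that mean. In experiments 2 and 5 astrocyte-lineage-like cells held more Cyr61, at 134 and 174 CPM. Ier3, an immediate early protein with roles in cell survival, measured 149, 878 and 305 CPM in experiments 2, 4 and 5 (log2 fold change 2.59, adjusted p = 4.2e-10). Klf2, which in endothelium responds to flow, measured 744, 794 and 764 CPM in experiments 2, 4 and 5 (log2 fold change 2.5 ± 0.42, adjusted p = 7.1e-13), the closest of these genes across experiments. Ier2 measured 198, 1185 and 153 CPM in experiments 2, 4 and 5 (log2 fold change 1.6 ± 0.37, adjusted p = 3.5e-05). The further calls were Klf4 (1.55 ± 0.37), Gadd45b (1.53 ± 0.93), Nfkbia (1.33 ± 0.35) and Nr4a1 (1.16 ± 0.46). The counts of Nr4a1 came from experiment 4 alone, at 0, 919.8 and 0 CPM in experiments 2, 4 and 5.

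The vessel-like experiments were not alike in their cells. In experiment 2, 15 of the 21 wells lay in the endothelial-like cluster, led by Cldn5 and Ly6c1, and in experiment 4, 12 of 15 lay in the fibroblast-like cluster, led by Dcn and Col1a2. Experiment 4 was the high one in Cyr61, Ier2, Ier3, Fos, Egr1, Btg2 and Nr4a1, and experiment 2 was the high one in Nfkbia (1017, 251 and 305 CPM in experiments 2, 4 and 5). Without experiment 4 the count of members called was 6, 5 higher and 1 lower, and Ier2 no longer passed. The share of all genes called in that fit is not given here. Cyr61, Ier3 and Klf2 passed under each of the 20 alternatives followed. Cell type and experiment cannot be told apart here. With microglia-like cells out of the reference 20 members were higher and 0 lower, among them Atf3 (1.88 ± 0.51), Btg2 (1.45 ± 0.39), Dusp1 (1.34 ± 0.38) and Socs3 (1.34 ± 0.55).

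Astrocyte-lineage-like cells had Cyr61 as the 1 member that was higher. It measured 70.9, 134, 426, 116 and 174 CPM in experiments 1, 2, 3, 4 and 5, a log2 fold change of 1.97 ± 0.46 (adjusted p = 1.0e-11), which was 1.75 ± 0.48 with microglia-like cells out of the reference. Ier3 had 0 counts in each of the 5 experiments and Klf2 measured 10.1, 38.2, 32.2, 8.91 and 13.4 CPM in experiments 1, 2, 3, 4 and 5, the 2 largest lower calls (-2.79 and -2.51 ± 0.55); with a group at 0 the fitted value for Ier3 depends on the prior count and has no usable SE. Without microglia-like cells the lower members were Fosb (-1.57 ± 0.32), Jund (-0.87 ± 0.26), Ier2 (-0.97 ± 0.36), Nfkbia (-0.83 ± 0.32), Klf2 and Ier3, and Dusp6 joined Cyr61 as higher (0.72 ± 0.4, adjusted p = 0.047). Jun, Klf4 and Rhob did not pass there, with log2 differences of -0.01 ± 0.25, -0.01 ± 0.31 and -0.08 ± 0.27. The lineage's experiments came from different clusters: 48 of 51 wells of experiment 3, which had the highest summed level of this lineage, lay in a cluster that the marker scores class as stem cell-like and that was led by Lrrc17, Msmo1 and Pantr1. It also held 8 wells of experiment 5. Its stem cell-like class is weak, with a stem cell score of 0.17 against 1.31 for the other stem cell-like cluster. The stem cell markers summed to 2249, 5491, 2848, 4365 and 5575 CPM in experiments 1, 2, 3, 4 and 5 of this lineage. In experiment 4, 14 of 15 wells lay in an astrocyte-like cluster of their own. Experiment and cluster cannot be told apart for experiment 3.

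Stem cell-like and astrocyte-like cells could be set side by side in experiment 2, the 1 experiment with at least 10 wells of each, so the comparison has no replicate and no test. The second stem cell-like cluster, led by Hopx, had 26 wells there and the astrocyte-like clusters 45. Members summed to 7078 CPM (exact Poisson interval 6538 to 7651) in the stem cell-like wells and 3469 CPM (3039 to 3943) in the astrocyte-like wells. Fos was at 1438 CPM (1200.5 to 1709) against 148 CPM (71.1 to 273). Jun was at 2508 CPM (2191 to 2858) against 1260.2 CPM (1007 to 1558), and Cyr61 at 223 CPM (136 to 344) against 14.8 CPM (0.375 to 82.6). Egr1 was at 323 CPM (216 to 464) against 44.5 CPM (9.17 to 130.0) and Rhob at 401 CPM (281 to 556) against 163 CPM (81.4 to 292). Dusp6 went the other way, with 33.4 CPM (6.90 to 97.7) against 178 CPM (91.9 to 311). The intervals, at 95%, cover counting error alone and not the spread between mice.

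Oligodendrocyte precursor-like cells had 2 members higher against all lineages. Nr4a1 measured 214, 113, 182 and 168 CPM in experiments 1, 2, 3 and 5, present in each experiment (log2 fold change 1.15 ± 0.33, adjusted p = 1.2e-04). Cyr61 measured 110.2, 63.9, 91.2 and 47.9 CPM in experiments 1, 2, 3 and 5 (log2 fold change 1.07 ± 0.51, adjusted p = 2.8e-04). Both were lost without experiment 1 and without the experiment term in the fit. With microglia-like cells out of the reference Fosb (1.09 ± 0.3), Jun (0.84 ± 0.28), Dusp6 (1.0 ± 0.42) and Socs3 (0.93 ± 0.45) were higher as well.

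The lower members of precursors were led by Zfp36 and Btg2. Zfp36 measured 39.8, 63.9, 68.4 and 71.9 CPM in experiments 1, 2, 3 and 5 (log2 fold change -2.47 ± 0.38, adjusted p = 9.9e-11) and Btg2 58.1, 17.2, 228 and 0 CPM in experiments 1, 2, 3 and 5 (log2 fold change -2.36 ± 0.39, adjusted p = 4.0e-10). Without microglia-like cells both stayed lower, at -1.66 ± 0.39 and -1.73 ± 0.4, together with Nfkbia, Ier2, Btg1, Dusp1 and Junb. In that comparison the AP-1 factors Jun and Fosb were thus higher in precursors while Junb was lower. Against all lineages 0 of 8 AP-1 factors were higher in precursors and 2 were lower, beside 19.8% and 6.25% of all genes. The summed level of this lineage was carried by Jun (28.2%) and Fos (19.5%). Experiments 1 and 5 were mostly of 1 precursor-like cluster and experiment 2 of another.

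Mature oligodendrocyte-like cells came from 2 experiments, and 16 members were lower there. Some lay near the counting floor and others above it. Klf2 measured 7.83 and 0 CPM in experiments 1 and 3 (log2 fold change -3.53 ± 1.58, adjusted p = 2.8e-06) and Klf6 86.1 and 0 CPM in experiments 1 and 3 (log2 fold change -3.44 ± 0.62, adjusted p = 4.8e-09), where a count of 0 allows up to 23.5 CPM in experiment 1 and 62.1 CPM in experiment 3. Junb was among the lower members at 149 and 124 CPM in experiments 1 and 3 (log2 fold change -1.35 ± 0.47), as was Fosb at 211 and 62.1 CPM in experiments 1 and 3 (-1.32 ± 0.48). Gadd45b was the 1 higher member, at 39.1 and 103 CPM in experiments 1 and 3 (log2 fold change 1.4 ± 1.01, adjusted p = 0.048), and was lost under 5 of 9 alternatives. Rhob, at 258 and 372 CPM in experiments 1 and 3, did not pass (0.41 ± 0.41). Fos, Jun, Jund and Egr1 made up 66.9% of the summed level in this lineage.

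Neurogenic cells were the lineage in which Egr1 led the members in the mean over experiments, with 20.1% of the summed level. Jun followed with 16.8% and Fos with 14.6%. By experiment, Egr1 lay above both in experiment 3 alone, at 275 counts against 173 for Jun and 117 for Fos. In experiments 1 and 2 Egr1 lay below both, and in experiment 4 just below Fos (955 against 961 counts). Against all lineages Egr1 missed the threshold (log2 fold change 0.62 ± 0.28, adjusted p = 0.055), and with microglia-like cells out of the reference it passed (1.31 ± 0.29, adjusted p = 2.7e-05). Ier5 measured 331, 423, 445 and 255.8 CPM in experiments 1, 2, 3 and 4 (log2 fold change 0.94 ± 0.32, adjusted p = 5.0e-04), and Ier2 120.3, 213, 570.3 and 338 CPM in experiments 1, 2, 3 and 4 (log2 fold change 0.58 ± 0.28, adjusted p = 0.026). The Ier2 call was lost under 15 of 22 alternatives and the Ier5 call under 5, in 1 of which its direction turned. Without plates D and E of experiment 3, a comparison added after the data had been seen, 0 members were higher in neurogenic cells and 23 were lower. The share of all genes called in that fit is not given here.

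Klf4 and Junb were the largest lower members of neurogenic cells. Klf4 measured 0, 20.6, 79.8 and 43.9 CPM in experiments 1, 2, 3 and 4 (log2 fold change -2.99 ± 0.4, adjusted p = 5.5e-15) and Junb a log2 fold change of -2.29 ± 0.31 (adjusted p = 5.7e-11). Both held under each of the 22 alternatives, and both stayed lower without microglia-like cells in the reference. The 4 feedback genes Nfkbia, Nfkbiz, Socs3 and Zfp36 were lower 4 of 4 in either form of the comparison, beside 11.2% and 9.67% of all genes. The neuroblast-like cluster held 101 of 103 wells of experiment 2 and 42 of 43 Nestin-GFP wells, with summed member levels of 0.533% and 0.939%. The proliferating progenitor-like cluster held 11 of 14, 27 of 27 and 82 of 82 wells of experiments 1, 3 and 4, with 0.340%, 1.19% and 0.917%. These are levels of the lineage sums and not of the clusters, and the part of the cluster in them was not tested. Fos, Jund, Egr1, Btg2, Dusp1 and Nr4a1 were higher in experiments 3 and 4 than in experiments 1 and 2, which was not tested.

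Of the 35 members 3 did not reach the filter in the niche comparison and have values alone. Egr3 had counts in microglia-like cells of experiment 3 (29.4 CPM) and neurogenic cells of experiment 3 (22.8 CPM) and 0 in each other niche sum. Klf10, a TGF-beta-induced factor, did not exceed 74.4 CPM in any niche sum. Nr4a2 (Nurr1) was highest in lymphoid-like cells, at 0, 48.8 and 260.0 CPM in experiments 1, 2 and 4, with vessel-like cells at 0, 83.6 and 76.4 CPM in experiments 2, 4 and 5 and no other lineage above 44.5 CPM.

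The level of the microglial markers in the other lineages was measured beside the members. The summed set of 14 markers stood at 285 to 821 CPM in the astrocyte lineage, 240.4 to 762 CPM in precursors, 241 to 703 CPM in neurogenic cells, 83 to 243 CPM in mature oligodendrocyte-like cells and 474 to 1141 CPM in vessel-like cells, against 38443 to 54661 CPM in microglia-like cells. Jun and Fos were closer between microglia-like and neural cells than these markers were. The part of RNA from other cells in the member levels was not tested.

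Other genes of the response were counted by lists. Of all genes 22% were higher and 10.7% lower in microglia-like cells, the shares to set beside each list. Of 19 further inducible factors 10 were tested, and 8 were higher and 0 lower in microglia-like cells, among them Sgk1, a kinase induced by stress and glucocorticoids (3.95 ± 0.28), and Cdkn1a, the cell cycle inhibitor p21 (2.9 ± 0.38). Of 15 inflammatory mediators 10 were tested, and 9 were higher and 0 lower. The chemokine Ccl3 measured 1067, 249, 809 and 1356 CPM in experiments 1, 2, 3 and 5 of microglia-like cells (4.24 ± 0.42) and Il1a 396, 105, 1147 and 191 CPM in experiments 1, 2, 3 and 5 (4.01 ± 0.54), with experiment 3 high in Il1a. Of 15 upstream kinases and factors 12 were tested, and 8 were higher and 0 lower, with smaller differences such as Mapk14 (2.08 ± 0.31) and Rela (0.9 ± 0.36). Median log2 fold changes were 1.87, 3.58 and 0.91 for these 3 lists, beside 3.52 over the members and -0.10 over all genes.

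The heat shock list divided the lineages in another way. All 11 genes were tested, and 7 were higher and 0 lower in microglia-like cells (22% and 10.7% of all genes), 8 lower and 0 higher in astrocyte-lineage-like cells (8.36% and 22.7%), and 4 higher and 3 lower in neurogenic cells (22.2% and 11.2%). In neurogenic cells the HSP90 genes Hsp90aa1 (0.72 ± 0.24), Hsp90ab1 (0.67 ± 0.24), Dnaja1 and Hsph1 were higher, and the inducible Hspa1a (-2.93 ± 0.56), Hspa1b (-2.64 ± 0.48) and Dnajb1 were lower. Vessel-like cells, where 9.35% of all genes were higher, had 3, Hspb1, Hspa1a (2.81 ± 0.35) and Hspa1b (1.97 ± 0.36), and mature oligodendrocyte-like cells (12.8%) also had 3, Hspa1a, Hspa1b and Hsp90aa1. With microglia-like cells out of the reference the astrocyte-lineage-like count stayed at 8 lower.

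The library from mice older than 12 months was compared with the niche experiments in 5 lineages. By edgeR 0 members were called in microglia-like (31 tested), lymphoid-like (26), precursor-like (20), neurogenic (18) and vessel-like cells (22), and 0% of all genes were called in either direction. At an unadjusted p under 0.05 there was 1 member in microglia-like cells and 0 in the other 4 lineages, and DESeq2 also called 0. The summed level of old microglia-like cells, 6.19%, lay inside the niche range, and the old lymphoid-like value, 2.08%, lay above the 3 niche values. The 1 member was Nr4a1, at 229 CPM in old microglia-like cells against 34.4, 6.57, 29.4 and 52.2 CPM in experiments 1, 2, 3 and 5 (log2 fold change 2.54 ± 0.77, adjusted p = 0.48). Jun was at 12038 CPM and Zfp36 at 2557 CPM in old microglia-like cells, above and below their niche ranges. Precursors of the old library held 0.660%, neurogenic cells 0.730% and vessel-like cells 1.99%, each inside the niche range. The old vessel-like sum also held 3469 CPM of the microglial markers, against 474 to 1141 CPM in the niche, and their part in its level was not tested. Old microglia-like wells lay mostly in the cluster that held those of experiment 2 (49 of 53 wells). With 1 old library, age, sort and sequencing run cannot be told apart.

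In the Nestin-GFP library 0 members were called by edgeR in astrocyte-lineage-like (23 tested), precursor-like (28), neurogenic (22) and vessel-like cells (22). Of all genes 0.0685% were higher in the first, 0.0474% in the second, 0.0715% in the third and 0% in the last, and 0.0119% were lower in the second. At an unadjusted p under 0.05 there were 3 members in the astrocyte lineage, 3 in precursors, 2 in neurogenic cells and 0 in vessel-like cells, and DESeq2 called 0. In the astrocyte lineage these were Fos, Junb and Zfp36. Fos stood at 80.4 CPM against a niche range of 120.3 to 2156 CPM (-3.33 ± 1.12, adjusted p = 1.0) and Junb at 12.7 CPM against 40.5 to 410 CPM (-2.96 ± 1.26, adjusted p = 0.76). The summed level of Nestin-GFP astrocyte-lineage-like cells, 0.186%, lay just under the lowest niche experiment, 0.197%, and the value in neurogenic cells, 0.939%, lay inside the niche range. Within this 1 library the neurogenic share was 5.04 times the astrocyte-lineage-like share, against 0.964 to 1.68 times in niche experiments 1 to 4. Markers of other cells moved with these values. Nestin-GFP astrocyte-lineage-like cells held 3248 CPM of mature oligodendrocyte markers (321 to 1094 CPM in the niche) and 863 CPM of mature neuron markers (13.4 to 298 CPM), and Nestin-GFP neurogenic cells held 2605 CPM of mature oligodendrocyte markers (141 to 331 CPM). Their part in the member levels was not tested. The reporter sort and the sequencing run cannot be told apart, and this library's astrocyte-like wells lay mostly in 2 clusters that few niche wells shared.

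Fewer cells of a type and less RNA per cell cannot be told apart in a summed level, which is why the levels are scaled to a lineage's own transcripts. The labels do not say whether the experiments came from separate mice, so the p-values rest on the spread between these experiments. In the niche comparisons all lineages were in the same fit and shared its estimate of the spread. A lineage's p-value thus does not measure how alike its own experiments were. Cyr61 in vessel-like cells, at 124, 2453 and 76.4 CPM in experiments 2, 4 and 5, is an example.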

How the data were processed

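Single cells were sorted into 384-well plates and profiled by SORT-seq, which tags each molecule at its 3' end. The authors deposited estimated counts, that is transcripts per gene and well from unique molecular identifiers (UMIs) corrected for saturation, as the values show by their steps just above whole numbers. The other library files, deposited by the authors under another file type, hold the same kind of value. The submitters' processing notes name the aligner BWA (0.6.2-r126) and the build mm10; which annotation and counter were used is not given in the sources here. UMI pools of 256 or 4096 were read from the size of those steps and differ between libraries.

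Estimated counts were rounded, and wells with at least 1000 transcripts were kept. Each count was divided at random into equal parts: 1 part served for clustering (scanpy 1.11.5, 30 principal components, resolution 1.0, without 95 response genes) and the other for all levels and tests, so the wells were not grouped on the counts tested. Clusters were named from fixed markers, no doublet caller was run, and wells with at least 3 detected markers of another lineage were left out in an alternative. A cluster led by Ttr, of low depth, and a few erythroid wells were left out of the lineages. Well barcodes are the same set in every library, so a shared barcode shows no shared cell.

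Counts were summed per experiment and lineage with at least 10 wells and fitted with edgeR 4.0.16 (R 4.3.3, quasi-likelihood, TMM scaling), with the experiment number given in the labels as a block, since lineages of an experiment come from the same plates. P-values were adjusted by Benjamini-Hochberg over all genes tested. Standard errors are Wald errors from the same fit, too wide for genes near 0, and are not given where a lineage holds 0 throughout. The old and Nestin-GFP libraries were each fitted against the niche experiments. A test of stem cell-like against astrocyte-like cells needed more experiments with both. Shares and sums of single samples carry exact 95% intervals, which cover counting error only, and a count of 0 allows up to 3 counts. The fit was tested on simulated data before use. The simulated lineages shared the same mean profile, apart from genes changed in microglia-like cells. All genes had the same fixed spread, and experiments did not differ. That setting is simpler than the data here, so its rates need not hold for them. For microglia-like cells the fit recovered 58 of 78 changes of 4-fold (74.4%) and 14 of 77 changes of 2-fold (18.2%). It made 3 false calls among 4622 unchanged genes. A member that did not pass may therefore still differ.

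The 35 members, the other lists and the tests were chosen with earlier results of these data known. Values in every experiment are given for the called members with the largest absolute log2 fold change in each lineage (up to 4 higher and 2 lower) and for Fos, Jun, Junb and Egr1 in all lineages; other members are given by group. Leaving microglia out of the reference, microglia against lymphoid cells alone, and leaving out plates D and E were added after seeing the data.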

Additional observations from a re-analysis of the deposited data

Results flagged for a closer look

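Of 36 groups of 4 or 5 experiments tested for a sample far from the others, 4 held one, and chance flags about 1 in 20 groups. Jun in microglia-like cells was at 7750.5 CPM in experiment 3, below 9276 to 9460 CPM in the other 3 experiments. Rgs2 in microglia-like cells was at 3518 CPM in experiment 1, above 1635 to 1912 CPM in the other 3. Junb in neurogenic cells was at 30.1 CPM in experiment 1, below 126 to 137 CPM in the other 3. Cyr61 in the astrocyte lineage was at 426 CPM in experiment 3, above 70.9 to 174 CPM in the other 4.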

How the results depend on the processing

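The count of members called in microglia-like cells was 25 to 32 over 24 alternatives, with 24 to 30 higher and 0 to 2 lower, and without plates D and E it was 26 higher and 1 lower. Under DESeq2 the count was 13 in lymphoid-like and 10 in mature oligodendrocyte-like cells. With wells of at least 2000 transcripts it was 12 in lymphoid-like cells, and 2 (lower) for the Nestin-GFP library in the astrocyte lineage. Wells assigned by marker score gave 9 in lymphoid-like cells. Without the replicate block it was 10 in the astrocyte lineage, 10 in precursors, 9 in mature oligodendrocyte-like and 9 in neurogenic cells, and 28 in microglia-like cells. With microglia left out of the reference it was 8 in the astrocyte lineage, 11 in mature oligodendrocyte-like, 13 in neurogenic and 20 in vessel-like cells. With scaling by library totals it was 15 in vessel-like cells, and the median log2 fold change of all genes moved from -0.10 to -0.38 in microglia-like cells, where that of the members was 3.15. The cause of these moves was not tested, except that leaving microglia out changes the reference itself. Apart from that comparison, the counts stand without the share of all genes called in the same fit. They thus do not show whether the members moved apart from other genes.

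Leaving out 1 experiment at a time gave 26 to 30 calls in microglia-like, 15 to 20 in lymphoid-like, 15 to 25 in astrocyte-lineage-like, 13 to 19 in precursor-like, 15 to 17 in mature oligodendrocyte-like, 18 to 23 in neurogenic and 6 to 11 in vessel-like cells, 0 in each comparison of the old library, and 0 to 1 for the Nestin-GFP precursors. Where an arm has 1 library, it is assumed to vary like the niche experiments. Depth limits the low members: in lymphoid-like cells of experiment 1 a count of 0 allows 173 CPM. Mature oligodendrocyte-like cells could not be fitted without plates D and E.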

Other observations

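Hspa1a and Hspa1b, heat shock genes that were not members, stood above the niche values in 3 lineages of the old library. Hspa1a, the stress-inducible HSP70, was at 2179.8 CPM in old microglia-like cells against 512, 269, 147 and 817 CPM in experiments 1, 2, 3 and 5 of the niche. In old lymphoid-like cells it was at 1876 CPM against 0, 97.7 and 56.5 CPM in experiments 1, 2 and 4. In old vessel-like cells it was at 3831 CPM against 471, 1505 and 993 CPM in experiments 2, 4 and 5. Its near-identical neighbour Hspa1b, whose reads can be hard to tell from those of Hspa1a, was at 2639, 3079.8 and 4192 CPM in the same 3 lineages, above each niche value. Over the heat shock list, 0 genes were called in these lineages, with median log2 fold changes of 1.2 over 11 genes tested in microglia-like, 1.2 over 10 in lymphoid-like and 0.22 over 9 in vessel-like cells. By edgeR neither gene passed after adjustment (Hspa1a adjusted p = 0.69, 0.36 and 0.89), with 1 old library and 0 genes called in all. In old neurogenic cells Hspa1a was at 0 and in old precursors at 80.1 CPM, inside the niche range. The summed level of the 35 members in old microglia-like cells, 6.19%, was inside the niche range in the same library. These genes were named after their values were seen, and age, handling and sequencing run of the old library cannot be told apart.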
